A study of Mus musculus with 4 samples.

Results

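The 10 genes described here make and load major histocompatibility complex (MHC) class II, the molecule on which antigen-presenting cells display peptides to CD4 T cells. They are H2-Aa, H2-Ab1, H2-Eb1, H2-DMa, H2-DMb1, H2-DMb2, H2-Oa, H2-Ob, Cd74 and Ciita, and they were taken by symbol from the 55450 genes of the deposited matrix. All 10 held unique molecular identifiers (UMIs, each marking a captured transcript molecule), from 407 UMIs of H2-Ob to 790452 of Cd74. Their levels were measured in 32133 single cells of mouse 4T1 tumours. Marker genes sorted 25748 of these into cell types, and the class II genes played no part in that sorting.

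A class II molecule pairs an alpha with a beta chain. H2-Aa and H2-Ab1 encode the chains of I-A, and H2-Eb1 encodes the beta chain of I-E. The invariant chain, encoded by Cd74, fills the groove until proteases remove it. The H2-DM proteins (H2-DMa with H2-DMb1 or H2-DMb2) then exchange its remnant for peptides, and the H2-O proteins (H2-Oa and H2-Ob) restrain H2-DM. Ciita is the co-activator that switches on most of the set. Dendritic cells and B cells express most of these genes constitutively, whereas interferon-gamma can induce many of them in macrophages and in many non-immune cells.

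The study grew 4T1 mammary carcinoma cells (1000000 per mouse) in the flank of female BALB/c mice aged 6 to 8 weeks, and the tumours of all groups were lit on days 8, 9 and 10, each time for 5 min with 980 nm near-infrared light at a power of 1.0 W per cm2. An intravenous injection on day 7 carried PBS in 2 samples and TIOs in 1 sample. TIOs are frozen macrophages loaded with light-activated nanoparticles. A further sample is titled PBS while its protocol names TIOs, so it was put in no group. Tumours were taken on day 13, CD45+ cells were sorted (CD45 marks leucocytes and is the product of Ptprc) and libraries were made with a 10x Genomics single cell 3′ protocol. The authors deposited raw UMI counts in a single matrix whose barcodes carry 4 suffixes, the mark that Cell Ranger gives to joined libraries. No source used here ties a suffix to a sample, so no treatment was compared, nothing was tested between groups, and each suffix stands for a library of unknown treatment. The sources used here do not say whether a sample pooled several mice.

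The libraries differed before any class II gene was considered. Suffixes 1 to 4 held 7847, 8614, 6783 and 8889 cells after the study's filter (at least 300 genes and at most 15% mitochondrial UMIs), with median depths of 11698, 2641.5, 2695 and 7182 UMIs per cell. Of the tumour-gated cells (keratins, Epcam and Cldn4), 3520 lay in suffix 1, 141 in suffix 2, 0 in suffix 3 and 1 in suffix 4, and their Ptprc level was 8.81 UMIs per 1000000 (CPM) in suffix 1. Every library carried free RNA, shed transcripts that enter every droplet, but of a different makeup. T cells of suffix 1 held 456 CPM of the tumour keratins Krt8 and Krt18 against 0 to 22.4 CPM in those of suffixes 2 to 4. For the macrophage genes C1qa, C1qb and C1qc the levels were 334 CPM against 7.99 to 38.1. The collagens Col1a1, Col1a2 and Col3a1 went the other way, at 122 CPM in T cells of suffix 1 against 1155, 734 and 644 in suffixes 2 to 4. The neutrophil genes S100a8 and S100a9 stood at 350 CPM against 321 to 553. Over the matrix, 202 barcodes shared their 16 bases with a barcode of another suffix. Levels below are CPM of the summed UMIs of a gate, and 95% intervals cover counting error only, not differences between mice. The 5733 cells that passed no gate are not in them. Those cells held 71417, 39541, 43490 and 64968 class II UMIs in suffixes 1 to 4, where macrophages held 529814, 21681, 2681 and 17747.

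H2-Aa, H2-Ab1, H2-Eb1, the H2-DM genes and the H2-O genes lie together on chromosome 17 of GRCm38, between positions 34092340 and 34344645 if the neighbouring H2-Ea-ps is included. Class II promoters are known for a shared module of an X box, bound by the RFX complex, and a Y box, bound by NF-Y, both of which Ciita needs. The RefSeq promoter table (GRCm38.p6, 250 bases before to 50 bases after each start) held 7 of the 8 class II genes of this region, without H2-Ab1. A search of both strands for the letters TGATTGG (Y box, which contains CCAAT reversed) found a match in 6 of the 7, all except H2-DMa, against 7.82% of 32851 promoters. An X box pattern, the first run of capitals in H2-Eb1 and H2-Ob below, matched in H2-DMb1, H2-Ob and H2-Eb1, against 2.51% of promoters, and both motifs together were present in 0.253%. Stretches around the Y box are shown because they carry the module that the class II genes share, with both motifs in capitals.
H2-Eb1: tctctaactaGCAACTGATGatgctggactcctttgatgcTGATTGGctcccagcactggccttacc
H2-Ob: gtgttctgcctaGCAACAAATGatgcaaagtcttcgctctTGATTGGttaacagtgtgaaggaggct
H2-DMb2: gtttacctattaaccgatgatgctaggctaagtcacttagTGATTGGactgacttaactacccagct
H2-Aa: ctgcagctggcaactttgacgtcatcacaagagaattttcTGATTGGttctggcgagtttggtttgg
They run 5′ to 3′ in the direction of the gene. H2-Eb1 lies at chr17:34305766-34305832 (plus strand), H2-Ob at chr17:34238806-34238872 (plus), H2-DMb2 at chr17:34145117-34145183 (plus) and H2-Aa at chr17:34287847-34287913 (minus). The Y box began 61, 59, 92 and 50 bases before the RefSeq start of H2-Eb1, H2-Ob, H2-DMb2 and H2-Aa. Between X and Y box lay 20 bases in H2-Eb1 and 18 in H2-Ob. In H2-DMb2 and H2-Aa this exact X box pattern was not found, which does not show that they lack an X box. At the place of the H2-DMb1 match (GTAACTGATG), H2-DMb2 reads ttaaccgatg, which departs from the pattern in the first letter only. The corresponding 67 bases of H2-DMb1 matched those of H2-DMb2 at 57 positions. The reference is the C57BL/6 genome, and the mice were BALB/c.

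Among gates of at least 20 cells, conventional dendritic cells held the highest class II levels in every library. The smaller gate of mature dendritic cells in suffix 2 (14 cells) stood above them over the summed genes, as given below. cDC1-gated cells (Xcr1, Clec9a, Wdfy4) and cDC2-gated cells (Cd209a, Clec10a, Mgl2) led all other gates of at least 20 cells for 10 of 10 genes in suffixes 1 and 3 and for 9 of 10 in suffixes 2 and 4, the exception in both being H2-Oa. No suffix held 20 B cells, so B cells had no part in this order. The 17 B cells of suffix 3 exceeded both gates for H2-DMb2 (430 against 366 CPM in cDC2). They also did for H2-Ob, H2-Oa and Ciita, on 6, 4 and 8 UMIs. Plasmacytoid dendritic cells exceeded both for H2-Oa in suffixes 1 (9 cells, 138 CPM) and 3 (14 cells, 78.6 CPM). For each of these genes the intervals overlapped. Over the summed genes the B cells held 23723 CPM, below both gates. The cDC2 gate of suffix 1 was mixed. Its 21 cells held the macrophage C1q genes at 10114 CPM, near the 12176 CPM of macrophages, beside 1346 CPM of their own markers, and 19 of them lay within 2-fold of the cut-off. Its values are given below as those of the gate. In suffix 1, cDC1 alone led 9 of the 10 genes. The 10 genes together reached 43467 CPM over the 166 cDC1 and 275 cDC2 cells of all libraries.

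H2-Aa, the I-A alpha chain, stood at 10282, 9686, 11441 and 10309 CPM in the cDC1-gated cells of suffixes 1 to 4. In cDC2-gated cells it stood at 7225, 7972.5, 11866 and 10103 CPM. The intervals of the 2 gates were apart in suffixes 1 and 2 and overlapped in suffixes 3 and 4. H2-Ab1, the I-A beta chain, stood at 6509, 4998, 8147 and 7753 CPM in cDC1 of suffixes 1 to 4. Its cDC2 levels were 4757, 4933, 8355 and 7285 CPM. H2-Eb1, the I-E beta chain, was at 5828, 5031, 7014 and 6685 CPM in cDC1 and at 4731, 4008, 7239 and 6869 CPM in cDC2. Across the libraries, each of these chains varied by less than 2-fold within a dendritic gate.

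Cd74, on chromosome 18 (60803848 to 60812652, plus strand), held the most UMIs of the 10 genes and made up 42.8% of the class II UMIs of cDC1 and 47.1% of those of cDC2. Its level was 23116, 17110, 19471 and 17725 CPM in cDC1 and 22368, 17224, 24287 and 22528 CPM in cDC2. The H2-DM chains differed between the dendritic subsets. H2-DMa was higher in cDC2 than in cDC1 in suffixes 2 to 4, with intervals apart (763 against 614, 1002 against 786 and 1022 against 687 CPM). In suffix 1, with its C1q-rich cDC2 gate, the levels were 1157 and 911 CPM. H2-DMb1 was higher in cDC2 with intervals apart in suffixes 2 and 4 only.

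Ciita, on chromosome 16 (10480059 to 10528418, plus strand), was sparse. It held 4131 UMIs in all and was detected in 2262 cells. Among gates of at least 20 cells, Ciita was led by cDC1 in every suffix, at 213, 139, 94.0 and 267 CPM. The cDC2 levels were 110, 98.5, 93.4 and 185 CPM, and the intervals of cDC1 and cDC2 overlapped in suffixes 2 and 3. Some smaller gates stood higher, on few UMIs. Mature dendritic cells of suffix 2 held 149 CPM (14 cells, 21 UMIs). B cells held 191 CPM in suffix 3 (17 cells, 8 UMIs) and 356 in suffix 4 (5 cells, 4 UMIs). Over all libraries, the 26 B cells held 198 CPM against 199 in cDC1, with overlapping intervals. Its promoter and that of H2-Ab1 were not analysed here.

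**Figure D1:**
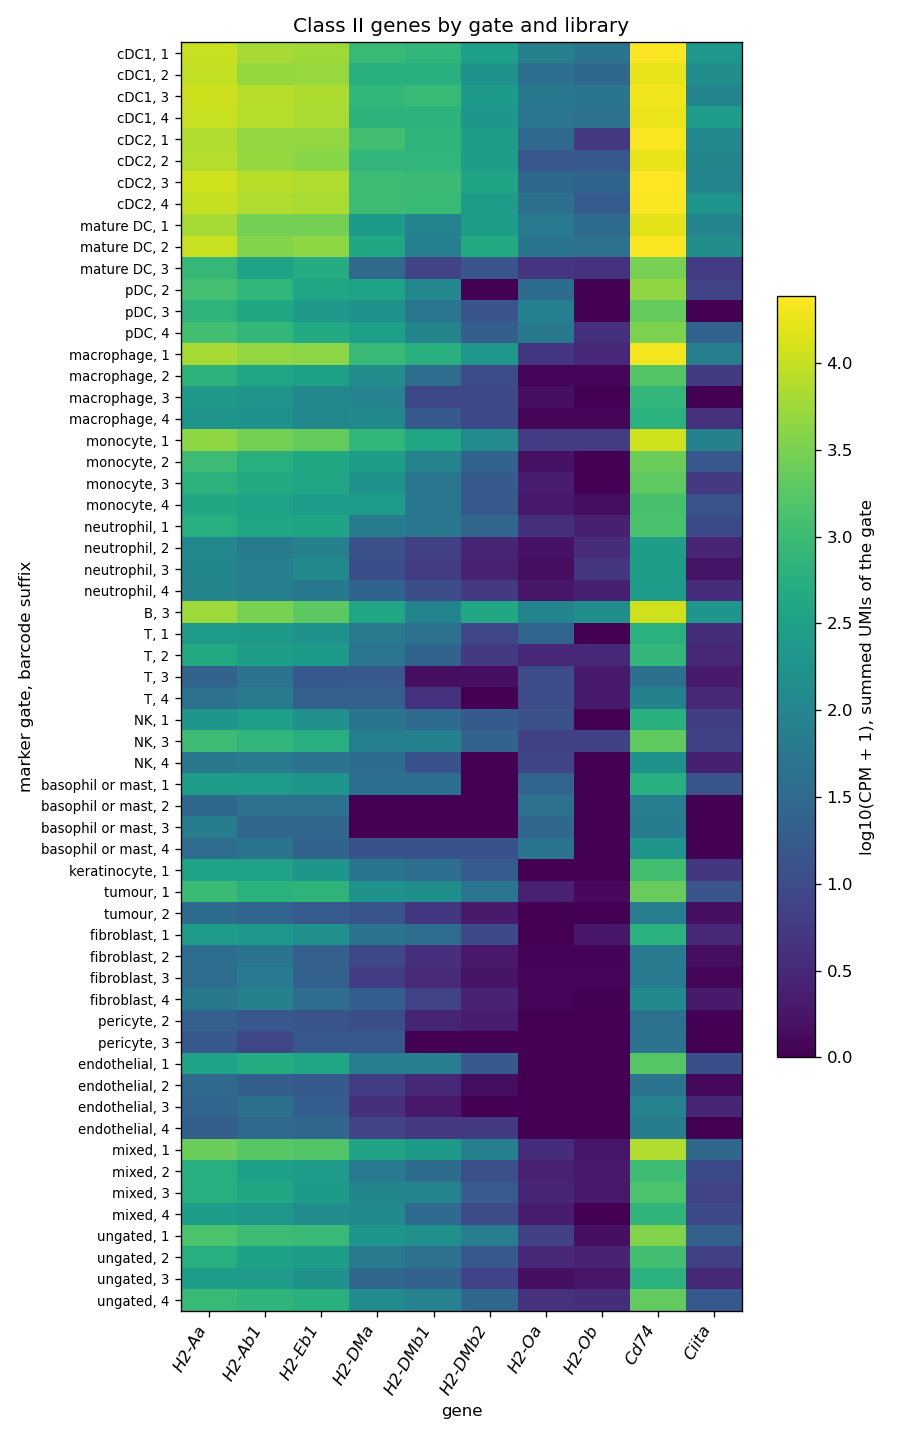
Level of each class II gene (columns, colour as log10 of CPM + 1) in each marker gate and barcode suffix with at least 10 cells (rows). The cDC1 and cDC2 rows are bright in all 4 suffixes, and the macrophage and tumour rows are each brightest in suffix 1. H2-Oa and H2-Ob are mostly dark outside dendritic and B cells, apart from H2-Oa in pDC, T cells, NK cells and basophils or mast cells. H2-Ob in monocytes of suffix 1 (5.01 CPM) and NK cells of suffix 3 (6.05 CPM) rests on 2 UMIs and 1 UMI.

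The remaining dendritic and lymphoid gates were less uniform. Mature dendritic cells (Ccr7, Fscn1, Ccl22), the state in which dendritic cells leave for lymph nodes, held a median of 24151 CPM of the summed genes per cell in suffix 1 (15 cells) and 39540 in suffix 2 (14 cells). Pooled, those of suffix 2 held 42688 CPM (41617 to 43780), above the cDC1 (38412) and cDC2 (36100) of that library, with intervals apart. The 184 cells of suffix 3 held a median of 2740 CPM. Their cells lay well below the others, and 17.4% of them exceeded 5000 CPM against 100% in suffixes 1 and 2. In the same cells the maturation markers were not lower in suffix 3, at 10485 CPM against 6931 and 7291 CPM in suffixes 1 and 2. Plasmacytoid dendritic cells (Siglech, Ccr9) held 7446, 3956 and 6232 CPM in suffixes 2 to 4.

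The 26 B cells, of which 17 lay in suffix 3, held 23156 CPM (interval 21959 to 24401) at a median depth of 2205 UMIs. Over all libraries they led for 3 of the 10 genes. H2-DMb2 stood at 496 CPM in B cells against 292 in cDC2, H2-Ob at 165 against 42.4 in cDC1, and H2-Oa at 66.1 against 61.9 in plasmacytoid cells. The last pair overlapped, and the B cell level of H2-Oa rested on 4 UMIs.

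H2-Oa and H2-Ob, the chains of the H2-DM inhibitor, had only 785 and 407 UMIs and different distributions. H2-Ob was in cDC1 at 48.3, 29.7, 47.0 and 44.4 CPM, and at 0 UMIs in the T cells of suffix 1, where 3 UMIs would be 1.62 CPM. H2-Oa was in cDC1 at 81.2, 38.9, 57.5 and 52.7 CPM, but also in plasmacytoid cells (34.8, 78.6 and 59.4 CPM in suffixes 2 to 4). It was at 26.3, 43.9, 27.3 and 47.9 CPM in basophils or mast cells, on 2 to 4 UMIs each. T cells held H2-Oa at 25.9, 2.24, 9.05 and 9.53 CPM, where fibroblasts stayed between 0 and 0.197 CPM. Macrophages of suffix 1 held 4.02 CPM of H2-Oa and 2.08 CPM of H2-Ob beside 907 CPM of H2-DMa. In those macrophages, unlike cDC1 and B cells, the inhibitor chains were thus low beside high levels of the other class II genes.

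H2-DMb1 and H2-DMb2 are neighbouring genes for the H2-DM beta chain, and their balance depended on the cell type. In cDC1 the ratio of H2-DMb2 to H2-DMb1 UMIs was 0.389, 0.283, 0.273 and 0.302 in suffixes 1 to 4. In cDC2 it was 0.391, 0.367, 0.373 and 0.296. Macrophages, monocytes, neutrophils, tumour cells and fibroblasts also held more H2-DMb1, with ratios of 0.233 to 0.520, except that macrophages of suffix 3 held 15 UMIs of each. Mature dendritic cells had the opposite balance, at 3.18 (interval 1.58 to 6.95) in suffix 1 and 6.09 (3.20 to 12.8) in suffix 2. In suffix 3 the ratio was 1.91 (0.880 to 4.38), which includes 1. B cells of suffix 3 stood at 4.50 (1.48 to 18.3), from 18 against 4 UMIs. The genes share sequence, so counts from shared stretches can be lost or given to the other gene. Of the 31-base words in the last 500 bases of the longest H2-DMb1 transcript, 25.3% occur in H2-DMb2 transcripts, and 0.851% the other way round. Each level is therefore uncertain, and as the shares are unequal the ratio itself may be shifted, although the same effect would act in every gate.

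**Figure D2:**
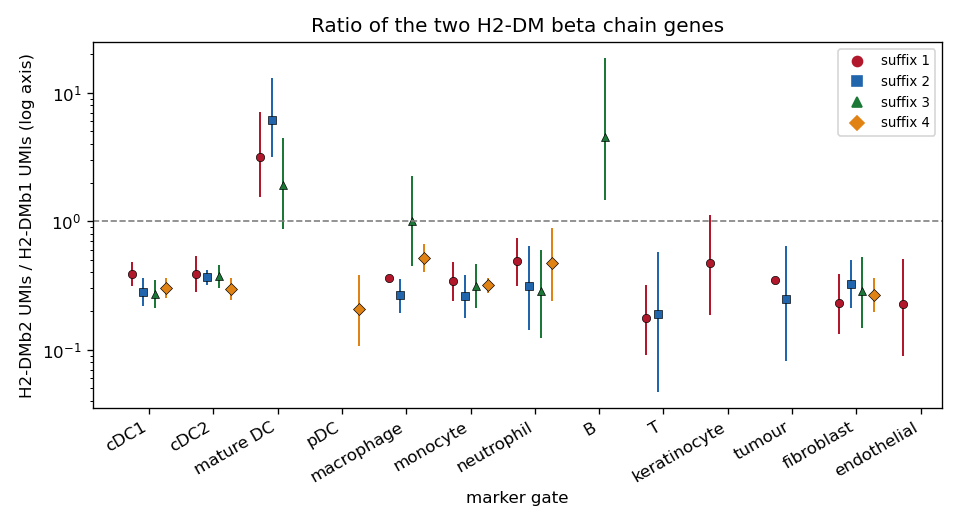
Ratio of H2-DMb2 to H2-DMb1 UMIs (log axis) in each marker gate and suffix with at least 20 UMIs of both genes together, with exact 95% counting intervals as lines and a dashed line at 1. Mature dendritic cells (3.18 and 6.09 in suffixes 1 and 2) and B cells (4.50) lie above 1, and cDC1, cDC2, monocyte, tumour and fibroblast points lie between 0.233 and 0.391.

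Macrophages differed widely between the libraries. In suffix 1 the macrophage gate (C1q genes, Mrc1, Ms4a7, Apoe, Trem2) held H2-Aa at 6521 CPM, where suffixes 2 to 4 held 688, 237 and 188. Cd74 stood at 20676 CPM in suffix 1 and at 1642, 797 and 631 in the others. H2-Ab1 stood at 4772 CPM and then at 389, 185 and 168. Over the summed genes, suffix 1 macrophages held 37998 CPM against 48051 in the cDC1 of their own library. The C1q-rich cDC2 gate of suffix 1 held 41364 CPM.

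Ciita was also highest in suffix 1, with 73.9 CPM in suffix 1, 4.61 in suffix 2, 0 UMIs in the 348 cells of suffix 3 and 3.15 CPM in suffix 4. In suffix 3, 3 UMIs would be 1.60 CPM. In each comparison of suffix 1 with another library, 8 of the 8 class II genes above a mean of 10 CPM were at least 2-fold higher in suffix 1. H2-Oa and H2-Ob were below that mean. Over all genes tested the share was 6.63% against suffix 2, 8.97% against suffix 3 and 8.61% against suffix 4. A mean over the pair lets a gene pass through its high library alone, so the count is a description. The median log2 difference of the 8 genes was 3.70, 4.74 and 4.92, against -0.26, -0.22 and -0.18 over all genes.

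Single cells showed 2 patterns. In suffix 1, 95.2% of macrophages exceeded 5000 CPM of the summed genes, with a median of 36962 CPM. In suffixes 2 to 4 the medians were 454.5, 298 and 386 CPM, and 13.4%, 5.17% and 4.27% of cells exceeded 5000 CPM. The 10% of cells with the most held 80.0%, 78.7% and 72.9% of the class II UMIs there, against 26.0% in suffix 1. Outside suffix 1, the level was therefore carried by a minority of cells in the gate.

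The macrophage gate differed between libraries in other genes too. The C1q genes stood at 12176 CPM in suffix 1 and at 4195, 1317 and 1556 in suffixes 2 to 4. The lysosomal protease Ctsl went the other way, at 797 CPM in suffix 1 and 3312, 5727 and 6898 in the others, and so did Ctsb, at 2072 against 6791, 7229 and 8457. Ctss, the protease that removes the invariant chain in antigen-presenting cells, was at 2513, 2135, 2435 and 2857 CPM in suffixes 1 to 4. Ifi30, the thiol reductase that unfolds antigens, stood at 1077 CPM in suffix 1 and at 560 to 622 in the others, and the co-stimulator Cd86 at 181 against 62.7 to 66.8. Of the 28 other genes of the pathway, 25 were measured in macrophages, and 3, 2 and 5 were at least 2-fold higher in suffix 1 than in suffixes 2, 3 and 4 while 6, 5 and 5 were at least 2-fold lower. Over all genes tested, 6.63%, 8.97% and 8.61% were at least 2-fold higher and 16.6%, 17% and 12.9% at least 2-fold lower. The pathway counts are therefore a description only. The part of macrophage subtype in the class II difference was not tested.

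Monocyte-gated cells (Ly6c2, Ccr2, Plac8) were ordered like macrophages, with 22775, 4945, 3747 and 2636 CPM of the summed genes in suffixes 1 to 4, although suffix 1 held only 74 of the 3263. In suffixes 2 to 4 their medians (751, 403 and 494 CPM) lay far below these means. cDC1 showed much smaller differences between libraries. Suffix 1 over suffix 2, cDC1 held 1.06-fold H2-Aa (1.02 to 1.10), 1.35-fold Cd74 (1.31 to 1.39) and 1.53-fold Ciita (1.13 to 2.08). The cDC2 gates gave 0.906, 1.30 and 1.11, with C1q at 10114 CPM in suffix 1 against 1438 in suffix 2, and the part of that difference was not tested.

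**Figure D3:**
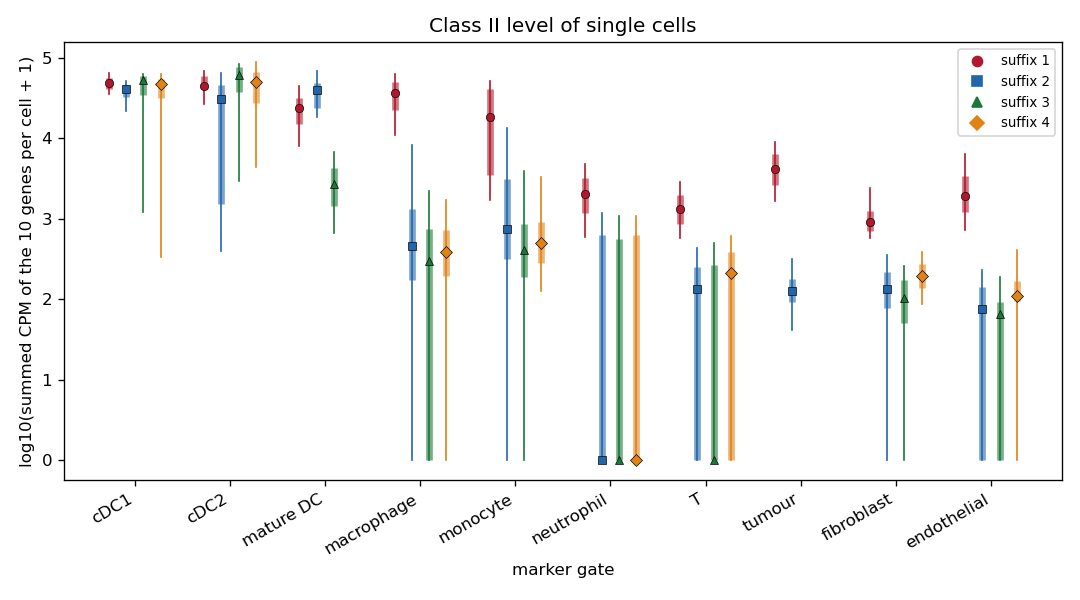
Summed CPM of the 10 class II genes per cell (vertical axis, log10 of CPM + 1) by marker gate and suffix, shown as the median (point), the middle 50% (thick line) and the 10th to 90th percentile (thin line). The macrophage median falls from 36962 CPM in suffix 1 to 298 to 454.5 CPM in suffixes 2 to 4, while the cDC1 and cDC2 medians stay between 31283 and 62271 CPM.

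Tumour-gated cells were not free of class II transcripts. Cd74 stood at 2360.5 CPM in the 3520 tumour cells of suffix 1 and at 74.7 CPM in the 141 of suffix 2. H2-Aa stood at 979 and 34.9 CPM, H2-Eb1 at 716 and 17.4, and H2-Ab1 at 621 and 26.4. The chaperone chains H2-DMa (174 and 13.0 CPM), H2-DMb1 (151 and 4.17) and H2-DMb2 (52.3 and 1.04) followed. Ciita was at 13.3 and 0.521 CPM, the latter from 3 UMIs. The tumour cells of suffix 1 thus held 5068 CPM of the summed genes, between its fibroblasts (1364.5 CPM) and its macrophages.

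Of the 10 genes, 7 exceeded a mean of 10 CPM over the pair of libraries, and all 7 were at least 2-fold higher in suffix 1, against 2.97% of the 7885 genes tested. The same limit on the filter holds as for macrophages. The ratio was 31.6 for Cd74 (28.7 to 34.8), 41.2 for H2-Eb1 (33.9 to 50.7) and 28.0 for H2-Aa (24.4 to 32.3). Ciita did not reach the mean, and its ratio was 25.6 (8.72 to 124). Of the 141 tumour-gated cells of suffix 2, 109 lay within 2-fold of the cut-off, against 1145 of the 3520 in suffix 1. The markers of the gate stood at 5153 CPM in suffix 2 and 8259 in suffix 1, at median depths of 36442 and 18914 UMIs. Suffix 1 was higher in other cells too, so these ratios contain the free RNA of that library. Its T cells held 1449.5 CPM of the summed genes against 1880, 153 and 245 in suffixes 2 to 4. The suffix 2 value came from few cells, as the 10% of cells with the most held 95.2% of its UMIs and the median cell held 135 CPM.

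The tumour level was therefore set beside free RNA measured in the same library. T and NK cells of suffix 1 held 1443 CPM of the summed genes, which was taken as free RNA and scaled by the C1q level of each gate, since C1q is a macrophage product. Tumour cells carried 0.653 of the C1q of T and NK cells. The estimate for tumour cells was 943 CPM, and the observed level was 5.37-fold higher (5.18 to 5.57). All intervals of ratios to the scaled estimate take the C1q factor as fixed, so they leave out the counting error of C1q. Without the C1q scaling the ratio was 3.51. Fibroblasts stood at 1.34-fold (1.27 to 1.41), neutrophils at 1.26-fold and basophils or mast cells at 1.06-fold (0.867 to 1.29). The order of the gates depended on the scaling. Before it, neutrophils held 2861 CPM, above keratinocyte-gated cells (2170 CPM). Fibroblasts held 1364.5 CPM, below the 1443 CPM of T and NK cells. The fibroblast level itself rose from 1364.5 to 2224 CPM when cells that passed gates of several lineages were kept, to 2558 CPM with Leiden clusters in place of gates and to 2251 CPM with all cut-offs multiplied by 2. Endothelial cells reached 3.47-fold (3.26 to 3.69, 57 cells) and keratinocyte-gated cells 2.44-fold (2.27 to 2.62, 39 cells). These pooled levels leaned on few cells. The 10% of cells with the most held 52.5% of the endothelial, 33.6% of the keratinocyte and 47.4% of the fibroblast UMIs. The median cells held 1910.5, 2496 and 904 CPM, against 1322 CPM in T cells.

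Gene by gene, tumour cells were above the estimate for H2-Eb1 by 6.28-fold, H2-Aa by 6.00-fold, Cd74 by 5.70-fold, H2-DMb1 by 5.52-fold, H2-DMa by 4.48-fold and H2-Ab1 by 3.82-fold. For H2-DMb2 the ratio was 9.59 (5.98 to 16.5) and for Ciita 6.92 (3.17 to 18.9), from 17 and 6 background UMIs. H2-Oa was below the estimate at 0.0934-fold. T cells of suffix 1 themselves carried H2-Oa at 25.9 CPM, below cDC1 (81.2 CPM) but above macrophages (4.02 CPM) and fibroblasts (0 UMIs). T and NK cells are therefore no background for that gene.

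**Figure D4:**
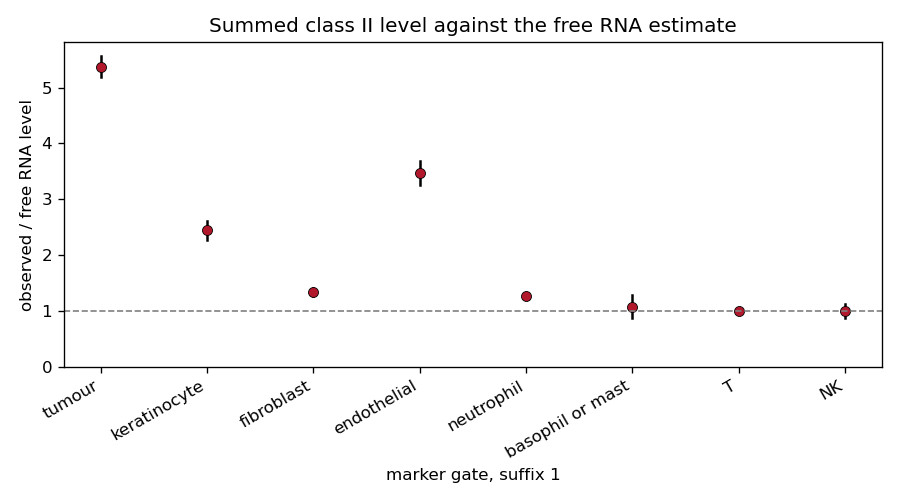
Summed level of the 10 class II genes in gates of suffix 1, divided by the free RNA level estimated from T and NK cells and scaled by C1q, with 95% counting intervals as lines and a dashed line at 1. The intervals take the C1q factor as fixed and leave out its counting error. Tumour cells (5.37), endothelial cells (3.47) and keratinocyte-gated cells (2.44) lie above fibroblasts (1.34) and neutrophils (1.26), and T and NK cells are at 1 by construction. Before the C1q scaling, neutrophils (2861 CPM) stood above keratinocyte-gated cells (2170 CPM).

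The scaled ratios of the summed genes can also be written as class II UMIs per C1q UMI, which is the same measure and not a further one. Tumour cells held 23.3 class II UMIs per C1q UMI, where T cells held 4.34, NK cells 4.29, basophils or mast cells 4.61, neutrophils 5.48, fibroblasts 5.81 and macrophages 3.12. Intervals of this form include the counting error of C1q and are wider. They were 23.0 to 23.7 in tumour cells and 2.92 to 7.58 in basophils or mast cells. Endothelial cells held 15.1 (12.3 to 18.6) and keratinocyte-gated cells 10.6 (8.65 to 13.1). In suffix 2 the tumour cells did not stand apart, at 4.96 UMIs (4.25 to 5.80) beside 4.76 in fibroblasts, 4.44 in pericytes and 4.39 in endothelial cells. In suffix 1, tumour cells with fewer C1q UMIs were shallower, so a count of 0 does not show that C1q RNA was absent. The 248 tumour cells without any C1q UMI (median depth 7730 UMIs) held 4419 CPM of the summed genes (4333 to 4507). Those with 3 to 5 C1q UMIs (20027 UMIs) held 5009. The 139 cells with 11 or more held 6368 CPM and had the greatest depth, a median of 43047 UMIs. H2-Eb1 exceeded H2-Ab1 in tumour cells of suffix 1, at a ratio of 1.15 (1.14 to 1.17). In the same library the ratio was 0.883 in macrophages, 0.719 in T cells and 0.715 in fibroblasts.

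Shares of cells with a UMI depended on depth. An H2-Ab1 UMI was present in 96.2% of tumour cells of suffix 1 (95.5 to 96.8%, median depth 18914 UMIs), but also in 65.7% of T cells (60.7 to 70.4%, 3988 UMIs) and 85.0% of fibroblasts (78.2 to 90.4%, 14581 UMIs). With every cell thinned to 1000 UMIs, the shares were 41.4% of tumour cells (39.7 to 43.0%), 24.7% of T cells (20.4 to 29.3%) and 13.8% of fibroblasts (8.63 to 20.5%). The thinned tumour share exceeded both backgrounds. Thinning kept 3477 of the 3520 tumour cells, 377 of the 385 T cells and 145 of the 147 fibroblasts. In suffix 2, 0.709% of thinned tumour cells held H2-Ab1, from 50.4% before thinning.

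Within tumour cells of suffix 1, the level of the other 9 genes moved with Ciita. Among the 2913 cells with at least 10000 UMIs, thinned to that depth, the median was 4100 CPM in 2596 cells with no Ciita UMI, 5700 in 279 cells with 1 and 7300 in 38 cells with 2 or more. The quartiles overlapped (2500 to 6300, 3600 to 8350 and 5025 to 11350 CPM). A split by C1qa, a gauge of macrophage RNA, gave medians of 4200, 4300 and 4700 CPM. Irf1, an interferon-induced transcription factor, gave 3600, 4300 and 4700 CPM. Rfx5, an RFX subunit, gave 4300 CPM without a UMI and 4400 with 1. These are cells of a single library and a description without a test.

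**Figure D5:**
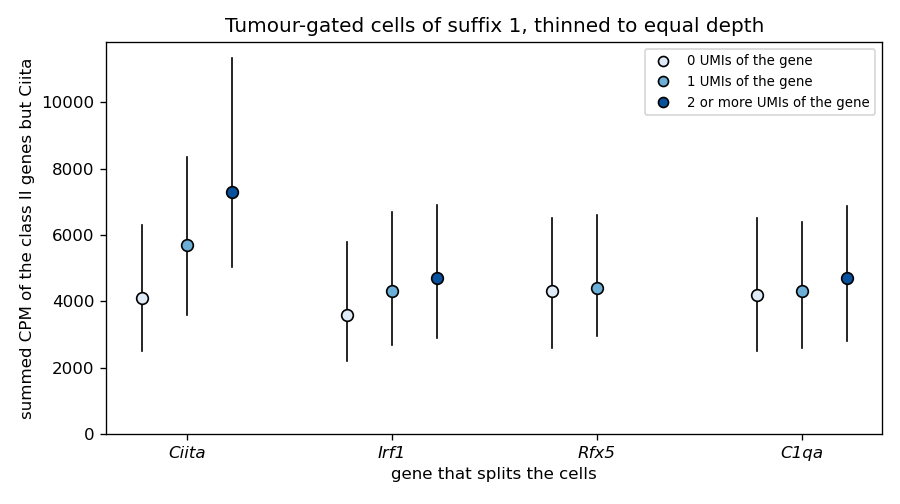
Summed CPM of the class II genes other than Ciita in tumour-gated cells of suffix 1, thinned to 10000 UMIs and split by the UMIs of the gene on the horizontal axis, as medians (points) with quartiles (lines). Medians rise from 4100 to 7300 CPM over the Ciita classes and from 3600 to 4700 CPM over the Irf1 classes, against 4200 to 4700 CPM over the C1qa classes.

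Endothelial cells (Pecam1, Cdh5) of suffix 1 held 3101 CPM of the summed genes and those of suffixes 2 to 4 held 124, 180 and 162. Their chain balance in suffix 1 was unlike that of tumour cells, with H2-Ab1 at 526 CPM and H2-Aa at 335 CPM, a ratio of 1.57 (1.28 to 1.93) against 0.634 (0.627 to 0.642) in tumour cells. The ratio was not constant among endothelial libraries, at 0.647 in suffix 2. Fibroblasts of suffixes 2 to 4 held 186, 194 and 326 CPM, also with more H2-Ab1 than H2-Aa (1.28, 1.71 and 1.38). In suffix 1 the order was turned (0.870). With the T and NK level subtracted without C1q scaling, the fibroblasts there stood at -78.9 CPM, whereas they lay above the scaled estimate. T cells held H2-Ab1 and H2-Aa at 244 and 254 CPM in suffix 1 and at 45.3 and 24.0 in suffix 3. In suffix 4 they held 61.4 and 42.4 CPM. In suffix 2 their H2-Aa was the larger, at 24.7% of class II UMIs against 14.5%. The part of free RNA in the fibroblast order was not tested. Keratinocyte-gated cells (Krt5, Krt14, Lgals7) were found in suffix 1 only, at 2170 CPM.

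Neutrophils held less than the macrophage, monocyte and dendritic gates. The summed genes stood at 2861 CPM in suffix 1 and 557, 594 and 531 in suffixes 2 to 4, where 53.6%, 56.5% and 53.9% of the cells held no class II UMI at median depths of 1725 to 1948 UMIs. H2-Eb1 was above H2-Ab1 in suffixes 2 and 3, at ratios of 1.27 (1.11 to 1.45) and 1.60 (1.43 to 1.79), and below it in suffix 4 at 0.735 (0.609 to 0.884). In suffix 3 the genes were detected in 13.7% and 7.84% of the 2921 neutrophils. After thinning the shares were 7.41% and 3.78%. T cells of suffix 3, at a median depth of 3175 UMIs against 1948 in neutrophils, gave 6.12% and 14.1%, and 1.64% and 3.76% after thinning. The H2-Eb1 share was thus above that of T cells and the H2-Ab1 share was not. H2-Ea-ps did not share the excess, at 0.462 of H2-Eb1 UMIs in suffix 3 (0.407 to 0.523).

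H2-Ea-ps, the alpha chain gene that partners H2-Eb1, is annotated as a polymorphic pseudogene because the C57BL/6 reference lacks a working copy, while BALB/c mice express I-E. It held 178931 UMIs. Over 31 pools of a gate and suffix with at least 50 cells it was the gene most like the summed class II genes among 13464, with a Pearson r of 0.993 on log2 CPM. Among the 10 genes themselves, H2-Aa, Cd74, H2-Eb1 and H2-Ab1 had r of 0.982 to 0.993 with the sum of the others, the H2-DM genes 0.926 to 0.938, Ciita 0.871 and H2-Oa 0.503, while H2-Ob had too few UMIs to be included. After H2-Ea-ps came Guca1a (0.814), Fgd2 (0.806), AC163635.1 (0.783), Ppfia4 (0.782), Cd86 (0.779), Pmvk, Ly86, Plbd1 and Ifi30 (0.757). Without suffix 1, Fgd2, AC163635.1, Plbd1 and Ifi30 stayed among the first 10, over 24 pools. Pools share libraries, depth and free RNA, so these values describe likeness and carry no test.

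The other genes of the pathway were spread over many cell types. Of the 28 genes, cDC1, cDC2 and mature dendritic cells led 10, among them H2-Ea-ps, Ifi30 (1517 CPM in cDC2), the ubiquitin ligase March1, which removes class II from the surface (109 CPM in cDC1), and Cd80, Cd86 and Cd40, which led in mature dendritic cells. Macrophages led the proteases Ctss, Ctsl, Ctsb, Ctsd and Lgmn. The subunits of RFX and NF-Y showed no such pattern. Rfx5 led in B cells at 33.1 CPM, below the 49.6 CPM that 3 UMIs would make in that gate. Its likeness to the class II genes was -0.01. Between the tumour cells of suffixes 1 and 2, 22 of the 28 were measured. H2-Ea-ps (606 against 22.9 CPM) and Irf1 (246 against 108) were among those at least 2-fold higher in suffix 1. The interferon-gamma receptor chain Ifngr1 (39.7 and 40.1 CPM), Jak1 (84.0 and 90.0) and Jak2 (62.9 and 66.4) had ratios between 0.934 and 0.990. Ifng stood at 789 CPM in the T cells of suffix 1 and at 15.7, 25.6 and 83.7 CPM in those of suffixes 2 to 4, and its part in the tumour levels was not tested.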

How the data were processed

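Single cell 3′ libraries of CD45-sorted 4T1 tumour cells were sequenced and, per the labels and the file header, aligned to mm10 and counted by the authors with Cell Ranger (version 2.1.1 in the submitters' processing notes, 3.0.2 in the study's methods and 6.1.2 in the matrix header). The deposited values are raw UMI counts per gene and barcode of 33064 barcodes, pooled over 4 samples, 355765099 UMIs in all and 69255999 to 108646352 per suffix. A UMI of this chemistry marks a 3′ end, whatever the length of the transcript. A column linking barcodes to samples was not used here, so the matrix was treated as 1 pooled sample and no p-value was computed.

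Cells with at least 300 genes and at most 15% mitochondrial UMIs were kept (32133). Each was given 1 of 16 gates when at least 2 or 3 of the markers of the gate were detected and their summed level reached a cut-off of 500 to 10000 CPM. The cut-offs were set on these data, and none of the class II genes was a marker. Gates took 25748 cells, 652 cells that passed gates of more than 1 of 6 lineages were left out, and 5733 passed none. Doublets were not removed in the main values. Summed UMIs gave CPM with exact Poisson and Clopper-Pearson intervals (95%). Where a count was 0, 3 UMIs gave the limit. Shares of cells were repeated after thinning each cell to 1000 UMIs, which left out 1890 cells. A gene was counted as higher at a 2-fold ratio among genes with a mean of at least 10 CPM over both pools. Likeness was Pearson's r of log2(CPM + 10) over pools of at least 50 cells, for genes with at least 500 UMIs, and the 10 most alike were named. The other named genes come from a pathway list of 28, of which 1 is not reported here by name. Medians of log2 differences used a pseudocount of 1 CPM.

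All 55450 gene identifiers matched the GRCm38 annotation used for coordinates, and promoters came from RefSeq. The gene list, the pathway list and the comparisons were chosen with earlier results of these data known. Counts were simulated for the tumour comparison (7885 genes) as Poisson draws from 1 mean profile. Of these, 100 of 100 genes raised 4-fold were called, 0 of 100 raised 1.5-fold and 0 of 7685 unchanged ones. The true ratio lay in 95.1% of the intervals of the unchanged genes. The draws had no spread between cells, libraries or mice, so they check the calculation only. Alternatives were other cell filters, Leiden clusters in place of gates, kept mixed cells, thinning, detection at 2 UMIs, removal of high Scrublet scores, each suffix left out and free RNA subtracted. Python 3.11.15, numpy 2.4.6, pandas 2.3.3, scipy 1.17.1, scanpy 1.11.5 and matplotlib 3.10.9 were used.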

Additional observations from a re-analysis of the deposited data

How the results depend on the processing

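Of 90 values recomputed under alternatives, 44 moved by less than the counting interval (or, for the count of genes led, within 1.5 times) and 46 by more. A minimum of 500 genes and a mitochondrial limit of 10% moved none. With Leiden clusters, summed levels were 33870 CPM in macrophages of suffix 1, 1768 in those of suffixes 2 to 4, 4870 in tumour cells, 2558 in fibroblasts and 2330 in neutrophils of suffix 1, with 93.0% of tumour cells holding H2-Ab1 and a ratio to free RNA of 4.59. With mixed cells kept, the same quantities were 36187, 1871, 5087, 2224 and 3979 CPM, and the ratio was 5.13. After thinning, macrophages of suffixes 2 to 4 were at 1931 CPM, tumour cells at 4868, fibroblasts at 1241, neutrophils at 2314, conventional dendritic cells at 40775 and the H2-Ab1 share at 41.4%, and it was 91.5% with detection at 2 UMIs. Leaving out the highest 5% of doublet scores gave 44354 CPM in dendritic cells, 39077 and 1724 in macrophages of suffix 1 and of suffixes 2 to 4, 4970 in tumour cells and a ratio of 6.26. Leaving out each suffix gave 42017 to 47464 CPM in dendritic cells, and 1266 to 2833 CPM in macrophages of suffixes 2 to 4 against 1841 with all, the highest without suffix 4. Subtracting the T and NK level as free RNA, without C1q scaling, gave 42540 CPM in dendritic cells, 36554 and 1141 in macrophages, 3625 in tumour cells, 1417 in neutrophils and -78.9 in fibroblasts. The 10% of cells with the most held 95.2% of the class II UMIs of suffix 2 T cells and 96.85% of those of suffix 3 NK cells. The median T cells of suffixes 2 to 4 held 135, 0 and 210 CPM. The level subtracted for the 1141 is thus no clean measure of free RNA. Chosen after seeing the data, cut-offs multiplied by 2 gave 46814, 38621, 1732, 5413, 2251 and 3034 CPM in dendritic cells, macrophages of suffix 1 and of suffixes 2 to 4, tumour cells, fibroblasts and neutrophils. A fibroblast background gave a ratio of 4.01 and an unscaled one 3.51, and leaving out shared barcodes moved none. The causes were not tested. Of the 10 genes, 7 were led by conventional dendritic cells over all libraries. The count was 6 after thinning, without high doublet scores and without suffix 1, 3 or 4, and 10 with cut-offs multiplied by 2. Only gates of at least 20 cells were compared, and 9 of the 26 B cells lay within 2-fold of their cut-off. The 10 is therefore no sign of a stronger dendritic lead over B cells.

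A stricter gate left 450 cells, with 12 tumour cells and 19 macrophages in suffix 1, too few for values. Leiden clusters gave no separate cDC1 or cDC2 class. No paired analysis was possible because the suffixes carry no sample, group or replicate number. Depth limits H2-Oa, H2-Ob and Ciita, which rest on few UMIs outside dendritic cells, and intervals omit the spread between mice.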
